A study of Mus musculus with 18 samples.

Results

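The genes described here are 10 transcripts of the circadian clock (Per1, Per2, Per3, Cry1, Nr1d1, Nr1d2, Dbp, Tef, Arntl and Clock), read as a check of time of dissection in granule cells of the ventral dentate gyrus. They were listed by symbol, with earlier results of these data known, and all 10 were found among the 34620 genes of the count files. RNA-Seq was performed on 6 libraries from adult male Swiss Webster mice of 8 to 12 weeks, 2 libraries in each of 3 groups, and every animal sequenced carried the wild-type 5-HT1A receptor gene. WT animals came from a separate wild-type lineage, with WT maternal and grandmaternal genotype. F1 males were sons of mothers heterozygous for the 5-HT1A receptor (5HT1A-/+). By the paper's methods they came from crosses of heterozygotes, so that their fathers were heterozygous too. F2 males were offspring of F1 females from such crosses and WT males, so that their parents were wild-type and their maternal grandparents heterozygous. Granule cells were microdissected from frozen sections of perfused brains, with animals taken from at least 3 litters, under a 12 h light cycle with lights on at hour 6. The sources used here give neither the hour at which each brain was taken nor how many animals each library pooled. Nothing stated that the 2 libraries of a group came from separate animals, so p-values measure only the spread between these libraries, which may be technical.

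The clock is a loop of transcription and repression that runs in almost every cell, including neurons outside the suprachiasmatic nucleus. Arntl (also called Bmal1) and Clock encode the activating pair, which binds E-box elements and drives Per, Cry, Nr1d and Dbp genes. The Per and Cry proteins then repress that pair, Nr1d1 and Nr1d2 (REV-ERB alpha and beta) repress Arntl through RRE elements, and Dbp and Tef act on D-box elements. In most tissues Dbp, Nr1d1 and the Per genes peak when Arntl is low, so levels of these genes are widely used to compare the clock phase of samples.

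Promoter sequences show which of these elements lie beside the genes that the results turn on. RefSeq start sites gave a window of 250 bases before and 50 after the start for 9 of the 10 genes. Each window was matched exactly once on its own chromosome in the mouse build of the count files (NCBIM37, mm9). Per2 had no entry. Motifs were searched on both strands: the E-box CACGTG, the D-box TTATGTAA, a second D-box form TTACGTAA, the RRE (AAAGT followed directly by AGGTNA) and the CRE TGACGTCA. These patterns share no overlapping matches in the sequences printed. The 250 bases before the start of Per3, at chr4:150418775-150419024 on the minus strand, are shown because Per3 was the one gene of the 10 that passed the test. Capitals mark its 2 D-boxes.

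Per3: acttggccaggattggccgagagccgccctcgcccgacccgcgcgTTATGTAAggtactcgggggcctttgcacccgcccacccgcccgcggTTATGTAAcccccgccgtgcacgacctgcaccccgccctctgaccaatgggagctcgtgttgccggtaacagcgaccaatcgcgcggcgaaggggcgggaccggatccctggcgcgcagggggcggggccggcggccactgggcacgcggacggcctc

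The D-boxes began 205 and 158 bases before the start. At least 1 such D-box was found in 0.938% of all 32851 promoter windows, and 2 or more in 7 windows (0.0213%). The second window, of Gm129 (Ciart, a repressor of the Arntl and Clock pair), at chr3:95686152-95686401 on the minus strand, is shown because Gm129 was the one gene called lower in F1 among 20 further clock genes. Capitals mark 3 E-boxes, at 116, 58 and 44 bases before the start.

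Gm129: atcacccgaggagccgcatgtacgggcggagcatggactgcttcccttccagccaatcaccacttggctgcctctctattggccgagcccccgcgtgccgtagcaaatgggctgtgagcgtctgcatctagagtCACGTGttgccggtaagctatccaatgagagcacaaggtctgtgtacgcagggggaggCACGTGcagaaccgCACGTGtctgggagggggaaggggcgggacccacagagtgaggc

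An E-box was present in 7.15% of all windows, and 3 or more in 29 windows (0.0883%). For comparison, stretches of 28 bases are given for the other genes that held an element, with E-boxes in capitals in Per1, Cry1 and the 2 start sites of Tef, and RREs in capitals in Arntl. They lie at chr11:68912274-68912301 (plus strand) for Per1, chr10:84647843-84647870 (minus) for Cry1, chr15:81632965-81632992 and chr15:81641695-81641722 (plus) for Tef, and chr7:120351006-120351033 and chr7:120351042-120351069 (plus) for Arntl.

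Per1: gcacccaagtcCACGTGcagggatgtgt
Cry1: gtgccggtggtCACGTGgggtgcatgcc
Tef, first start: tgctgtggctcCACGTGctgcagctggc
Tef, second start: acctggcccagCACGTGtctacatcgtt
Arntl, first RRE: attggtcggAAAGTAGGTTAgtggtgcg
Arntl, second RRE: ggaaggcagAAAGTAGGTCAgggacgga

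The RRE was found in 0.0609% of windows. Dbp, Nr1d1, Nr1d2 and Clock held none of the 5 patterns in these windows, which says only that these letters are not there. Of the further clock genes, only Gm129 was read in this way. The part of these elements in the values of Per3 and Gm129 was not tested.

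Reads counted on genes ranged from 26358165 to 33727936 per library. All 10 genes passed the filter on low counts, with between 429 and 15648 reads in any library, so no member was lost. Levels are given as counts per 1000000 reads on genes (CPM), scaled by TMM factors. The granule cell marker Prox1 was present in every library, at 228 to 345 CPM. Of the suprachiasmatic nucleus, the brain's master clock, 4 markers summed to 0.294 to 0.858 CPM, and Six6 and Nms were at 0 in some libraries. Htr1a, the gene deleted in the heterozygous mothers, was at 49.3 to 68.6 CPM in all 6 libraries, and did not pass in F1 (log2 fold change -0.18, edgeR exact test, adjusted p = 0.332) or F2 (0.20, adjusted p = 0.266). Exons of Dbp shared 16.7% of their bases with Sphk2 on the opposite strand, those of Nr1d1 8.42% with Thra and those of Tef 2.45% with Gm17597. The strand setting of the counting was not given, so reads in those stretches may have been left out or may belong to the neighbour. The other 7 genes shared no exon bases with another gene.

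**Figure D1:**
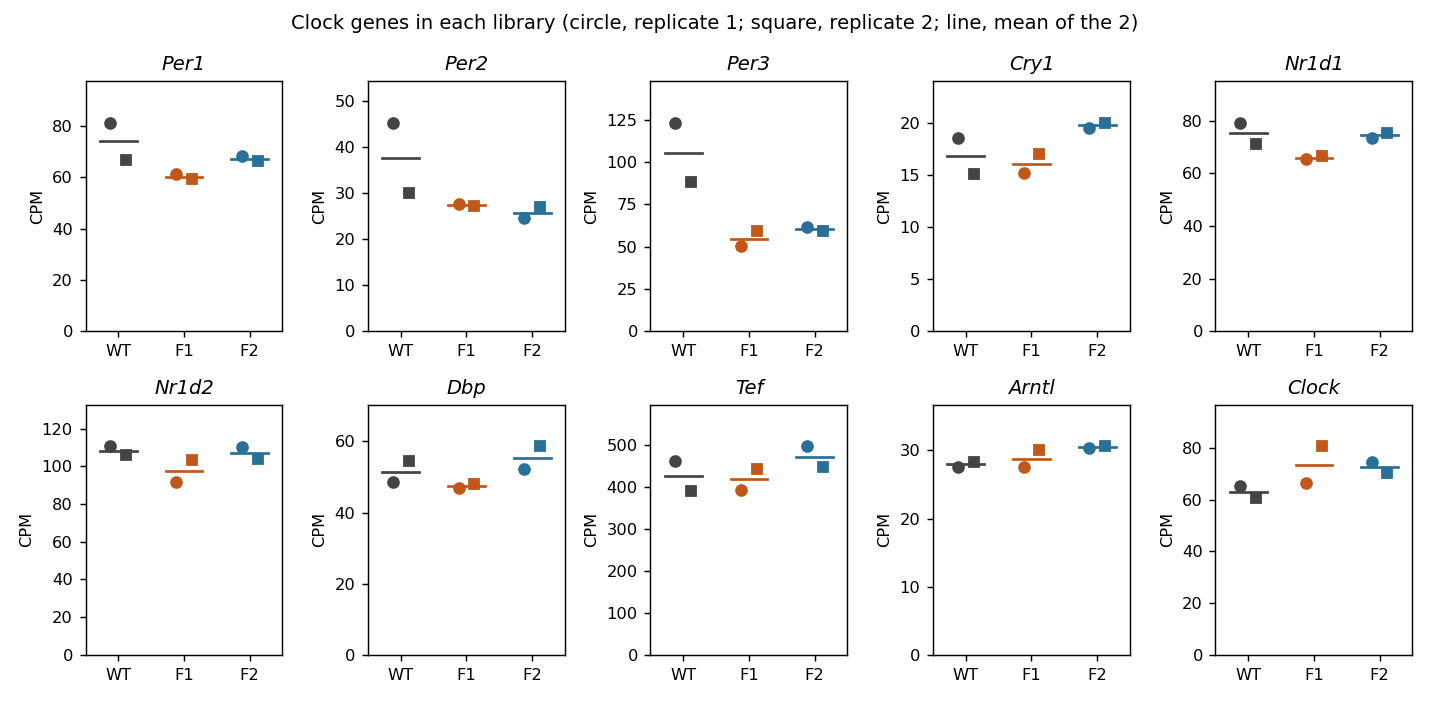
Normalised level (CPM, linear axis from 0) of the 10 clock genes in WT, F1 and F2. Each point is 1 library and each line the mean of 2; Per3 was at 87.9 CPM or more in both WT libraries and at 61.6 CPM or less in the other 4, whereas Arntl stayed between 27.6 and 30.6 CPM.

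The order of the members' levels was read only per kilobase of exon, as the mean over 6 libraries. Tef was the most abundant at 55.7 CPM per kb, and no library of another gene reached its lowest library (49.7 CPM per kb). Nr1d1 (23.0), Nr1d2 (20.8) and Dbp (17.5) followed, and the ranges of neighbours in this order overlapped. Per1 (11.9 CPM per kb) and Arntl (9.94) each stood apart from the next gene in order, although Per3 reached 12.8 CPM per kb in WT replicate 1. Clock (7.89), Per3 (7.65), Cry1 (5.83) and Per2 (5.17) each overlapped the next in order, although every library of Clock was above every library of Cry1.

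The Per genes encode repressors that act together with the Cry proteins. Per3 (chr4:150377761-150418774, minus strand) was at 123 and 87.9 CPM in WT, 50.1 and 59.1 CPM in F1, and 61.6 and 59.0 CPM in F2. All 4 F1 and F2 libraries were below both WT libraries, and F1 and F2 overlapped each other. The mean was 106 ± 24.9 CPM in WT, 54.6 ± 6.40 in F1 and 60.3 ± 1.83 in F2 (SD, n = 2 libraries). In F1 the level fell by 48.3%, a log2 fold change of -0.95 (SE 0.16), by the edgeR exact test with Benjamini-Hochberg adjustment over 17421 genes (adjusted p = 7.86e-08). In F2 it fell by 42.9%, a log2 fold change of -0.81 (SE 0.16, adjusted p = 8.57e-06). The quasi-likelihood test of edgeR gave adjusted p = 0.00198 in F1 and 0.00483 in F2. F1 and F2 are compared with the same 2 WT libraries, so the values are not independent of each other.

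Per3 was thus 1 of 10 members called at an adjusted p under 0.01 in F1, against 12.3% of all genes tested in either direction and 8.54% called lower. In F2 it was again 1 of 10, against 12% of all genes and 8.1% called lower. By the quasi-likelihood test Per3 was again the 1 member called in each comparison, against 5.91% of genes in F1 and 5.72% in F2. These shares lie near the background, so the count says nothing particular of clock genes. At the looser threshold of 0.05, Per2 and Per3 were called in each comparison, 2 of 10 members against 20.8% of genes in F1 and 20.7% in F2.

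Per2, a core repressor that also takes up light and hormone signals, was at 45.2 and 30.0 CPM in WT, 27.5 and 27.1 CPM in F1, and 24.5 and 27.0 CPM in F2. The 4 F1 and F2 libraries lay below both WT libraries, but WT replicate 2 was nearer to F1 than to WT replicate 1. The log2 fold change was -0.46 (SE 0.18, edgeR exact test, adjusted p = 0.0489) in F1 and -0.55 (SE 0.18, adjusted p = 0.0166) in F2, neither past the threshold of 0.01. The value rested on 1 WT library. Without WT replicate 1 it was -0.13 in F1 (adjusted p = 0.693) and -0.22 in F2 (adjusted p = 0.49). Without WT replicate 2 it was -0.72 (adjusted p = 0.000425) and -0.81 (adjusted p = 4.99e-05), the only alternative at the threshold of 0.01 in which Per2 passed. Per3 kept its direction and passed in all 16 alternatives, with log2 fold changes between -1.16 and -0.69 in F1. In F2 they lay between -1.02 and -0.54, and the weakest value there (adjusted p = 0.00996) came without WT replicate 1.

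**Figure D2:**
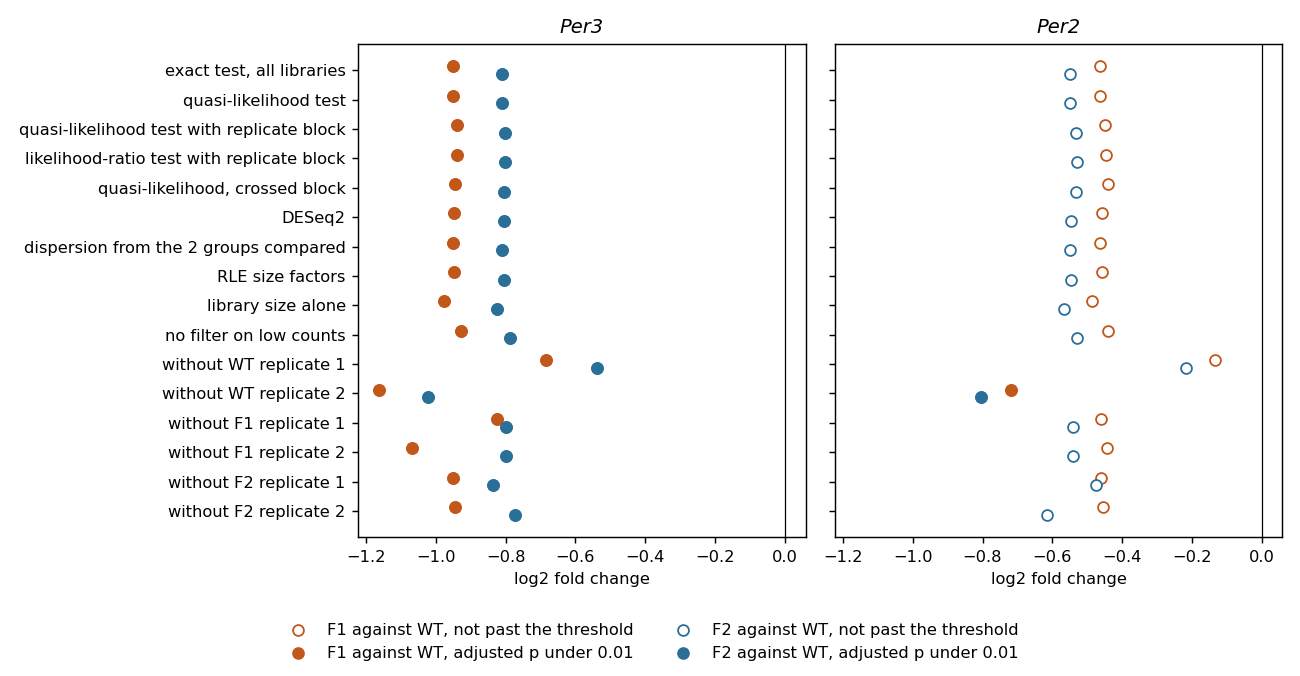
Log2 fold change of Per3 (left) and Per2 (right) in F1 and F2 against WT under each way of testing; filled points passed an adjusted p under 0.01. All Per3 points are filled, and the Per2 points move from -0.81 to -0.13 with the WT library that is left out.

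Per1, which encodes the third repressor of this family and is also induced by neuronal activity and glucocorticoids, was at 81.3 and 67.0 CPM in WT, 61.3 and 59.2 CPM in F1, and 68.3 and 66.3 CPM in F2. The F1 libraries were below both WT libraries, whereas F2 overlapped WT. Its log2 fold change was -0.30 in F1 (95% interval -0.55 to -0.05, adjusted p = 0.0747) and -0.14 in F2 (-0.39 to 0.11, adjusted p = 0.48). In F1 it was -0.15 without WT replicate 1 (adjusted p = 0.566) and -0.42 without WT replicate 2 (adjusted p = 0.0267). Cry1, the partner of the Per proteins, was at 18.5 and 15.1 CPM in WT, 15.2 and 17.1 CPM in F1, and 19.5 and 20.0 CPM in F2. The change in Cry1 (log2) was -0.06 in F1 (95% interval -0.39 to 0.26) and 0.23 in F2 (-0.09 to 0.56).

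The 2 WT libraries themselves differed in several members. WT replicate 1 exceeded WT replicate 2 by 1.51-fold in Per2, 1.40-fold in Per3, 1.23-fold in Cry1, 1.21-fold in Per1 and 1.18-fold in Tef. Of 8938 genes with a mean of at least 15 CPM, 0.962% differed between the WT libraries by as much as Per2 in either direction, 2.20% as much as Per3 and 13.1% as much as Per1. In F1 and F2 the replicate ratio of all 10 members ranged from 0.826 to 1.11. Dbp went the other way in WT, with a ratio of 0.891.

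Dbp, Nr1d1 and Nr1d2, whose transcripts swing widely over the day in most tissues, and Tef did not pass the test in either comparison. Dbp, a D-box activator and a common marker of clock phase, was at 48.5 and 54.4 CPM in WT, 47.0 and 48.0 CPM in F1, and 52.3 and 58.6 CPM in F2. WT and F2 overlapped, and F1 lay just below WT. The log2 fold change of Dbp was -0.11 in F1 (95% interval -0.36 to 0.13) and 0.11 in F2 (-0.14 to 0.35). Nr1d1, the REV-ERB alpha repressor of Arntl, was at 79.3 and 71.1 CPM in WT, 65.3 and 66.6 CPM in F1, and 73.6 and 75.2 CPM in F2. The change in Nr1d1 (log2) was -0.19 in F1 (95% interval -0.42 to 0.04) and -0.02 in F2 (-0.24 to 0.21). Its paralogue Nr1d2 was at 111 and 106 CPM in WT, 91.7 and 103 CPM in F1, and 110 and 104 CPM in F2. F1 was the lowest group for Dbp, Nr1d1 and Nr1d2, and none of these differences passed the test (adjusted p = 0.573, 0.255 and 0.403 in F1). Tef, the other D-box activator, was at 460 and 391 CPM in WT, 393 and 443 CPM in F1, and 496 and 446 CPM in F2, and WT overlapped both other groups.

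The activating pair did not pass the test. Arntl was at 27.6 and 28.4 CPM in WT, 27.6 and 30.1 CPM in F1, and 30.4 and 30.6 CPM in F2. It had the smallest range of the 10 genes over the 6 libraries, 0.15 on the log2 scale, against 1.30 for Per3. The log2 fold change of Arntl was 0.04 in F1 (95% interval -0.23 to 0.31) and 0.12 in F2 (-0.14 to 0.39). Clock was at 65.4 and 60.5 CPM in WT, 66.6 and 80.6 CPM in F1, and 74.7 and 70.2 CPM in F2. All 4 F1 and F2 libraries were above both WT libraries, and the log2 fold change was 0.23 in F1 (adjusted p = 0.212) and 0.20 in F2 (adjusted p = 0.273). Such separation, of all 4 libraries to one side of both WT libraries, was found for 3 of 10 members (Per2 and Per3 below, Clock above) and for 44.7% of all genes tested.

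**Figure D3:**
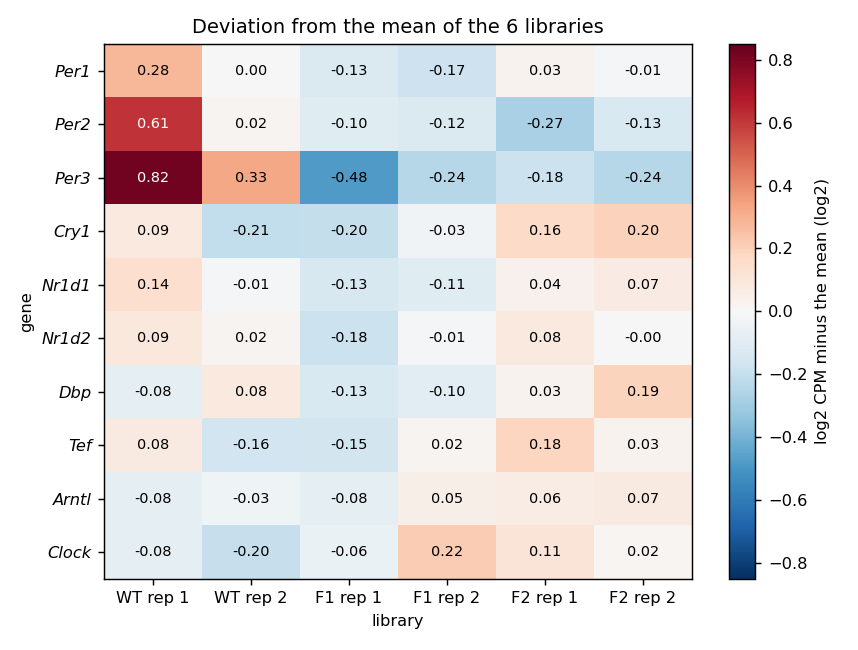
Deviation of each clock gene in each library from its own mean over the 6 libraries, on the log2 CPM scale (red above, blue below). The values of 0.82 for Per3 and 0.61 for Per2 in WT replicate 1 are the highest of the plot, and Arntl lies within 0.08 of its mean in every library.

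The 9 members not called bound the size of a difference that could have been missed between these libraries, not between animals or litters. In F1 their log2 fold changes ran from -0.46 to 0.23, with 95% intervals that reached from -0.81 to 0.48. In F2 they ran from -0.55 to 0.23, with intervals from -0.90 to 0.56. The median over all 10 was -0.13 in F1 and 0.05 in F2, beside 0.01 and 0.00 for all genes tested. F2 against F1 compares no WT library, although the WT libraries enter its estimate of dispersion. No member was called there, by the exact test or the quasi-likelihood test, and 0 of 10 had an unadjusted p under 0.05, against 0.74% of genes called by the exact test, 0.0115% by the quasi-likelihood test and 8.64% with such a p. The log2 fold changes ran from -0.09 to 0.29 (intervals from -0.44 to 0.62), and 8 of the 10 were above 0, with a median of 0.15. Over all genes tested 8668 of 17421 were above 0. Against WT, 8 of the 10 members were below 0 in F1 and 5 in F2, beside 8552 and 8718 of all genes. The range over 6 libraries had a median of 0.38 on the log2 scale (1.30-fold) for the members, 0.57 for all genes tested and 0.40 for genes with a mean of at least 15 CPM.

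Ratios within a library set rhythmic genes against the activators Arntl and Clock and do not depend on the scaling between libraries. The log2 ratio of Dbp to Arntl was 0.81 and 0.94 in WT, 0.77 and 0.68 in F1, and 0.78 and 0.94 in F2, and F2 overlapped WT. The log2 ratio of Nr1d1 to Arntl was 1.52 and 1.32 in WT, 1.24 and 1.15 in F1, and 1.28 and 1.30 in F2. Here the 4 F1 and F2 libraries were below WT, F2 by little. The log2 ratio of Per2 to Arntl was 0.71 and 0.08 in WT, 0.00 and -0.15 in F1, and -0.31 and -0.18 in F2. The log2 ratio of Per3 to Clock was 0.91 and 0.54 in WT, -0.41 and -0.45 in F1, and -0.28 and -0.25 in F2. All 4 F1 and F2 libraries were below both WT libraries. For Per3 over Clock this had to follow from the single genes, since Per3 was lower and Clock higher in all 4, so the ratio adds no separate result. These ratios are not corrected for gene length, so their sign carries no meaning and only differences between libraries are read. With 2 libraries a group, an exact two-sided permutation test cannot go below p = 0.333, so no p is given for these ratios. The hour of dissection was not given for any library, and its part in the Per3 values was not tested.

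**Figure D4:**
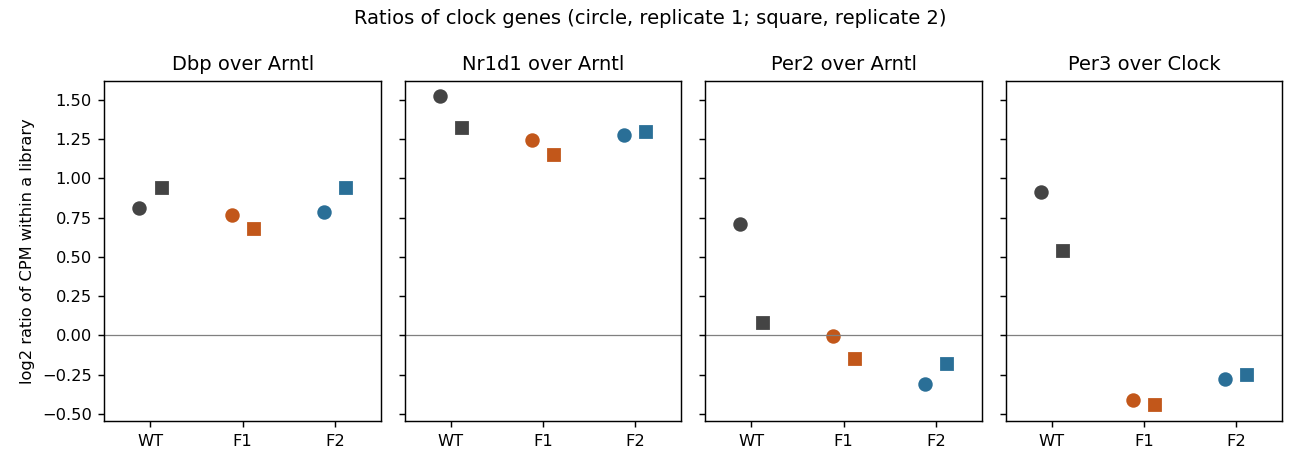
Log2 ratio of the CPM of 2 clock genes within each library, for Dbp over Arntl, Nr1d1 over Arntl, Per2 over Arntl and Per3 over Clock; each point is 1 library. Dbp over Arntl spans 0.68 to 0.94 with groups that overlap, whereas Per3 over Clock is at 0.54 or more in both WT libraries and at -0.25 or less in the other 4.

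Among 20 further genes of the clock machinery, 1 was called in F1 and 4 in F2, against 12.3% and 12% of all genes, and 1 of them was lower in each comparison. Gm129 was at 15.6 and 13.8 CPM in WT, 9.61 and 9.10 CPM in F1, and 9.01 and 11.4 CPM in F2. All 4 F1 and F2 libraries lay below WT, with a log2 fold change of -0.65 in F1 (exact test, adjusted p = 0.00489) and -0.53 in F2 (adjusted p = 0.0277). By the quasi-likelihood test Gm129 did not pass in F1 (adjusted p = 0.0189).

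In F2, Arntl2, the paralogue of Arntl, was lower by a log2 fold change of -0.92 (adjusted p = 0.000494), with 10.6 and 8.52 CPM in WT and 4.86 and 5.23 CPM in F2. Rora, an activator that competes with the REV-ERBs for RREs, was higher by 1.02 (adjusted p = 0.000399). Its libraries were at 23.3 and 25.3 CPM in WT, 25.9 and 52.9 CPM in F1, and 48.8 and 49.6 CPM in F2, so that F1 replicate 1 was like WT and F1 replicate 2 like F2. Bhlhe40, an E-box repressor, rose by 0.42 (adjusted p = 0.00722), and Gsk3b, a kinase of clock proteins, by 0.38 (adjusted p = 0.00882). Of these 4, only Arntl2 passed the quasi-likelihood test (adjusted p = 0.00852). None of these 5 calls held when each library was left out in turn. Gm129 and Gsk3b were lost without any 1 of the 4 libraries compared (adjusted p up to 0.111 and 0.173), Arntl2 and Rora without WT replicate 1 or either F2 library (up to 0.0567 and 0.0316), and Bhlhe40 without WT replicate 2 or either F2 library (up to 0.139). The log2 fold changes in those fits stayed between -0.73 and -0.56 for Gm129, -0.97 and -0.75 for Arntl2, 0.96 and 1.04 for Rora, 0.32 and 0.43 for Bhlhe40, and 0.31 and 0.48 for Gsk3b. Such a fit leaves 1 library in a group, which is assumed to vary like the other groups.

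Of the genes not called, 4 in roles close to those of the members are given for comparison. The log2 fold change was 0.24 in F1 and 0.32 in F2 for Cry2, the paralogue of Cry1, and 0.07 and 0.45 for Npas2, which can stand in for Clock. It was -0.12 and 0.23 for Hlf, of the same family as Dbp and Tef, and 0.07 and -0.05 for Nfil3, the repressor that competes for D-boxes. The median over the 20 genes was 0.15 in F1 and 0.20 in F2, beside medians of all genes of 0.01 and 0.00. Of 5 clock-controlled output genes none was called in either comparison by the exact or the quasi-likelihood test, against 12.3% and 12% of all genes by the exact test. At an adjusted p under 0.05 by the exact test, 1 was called in F1 and 1 in F2 (Wee1), against 20.8% and 20.7% of all genes. Usp2, an output that follows Dbp in many tissues, had log2 fold changes of -0.03 and 0.19, and Wee1, a cell cycle kinase, 0.99 (adjusted p = 0.0108) and 0.94 (adjusted p = 0.0168).

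**Figure D5:**
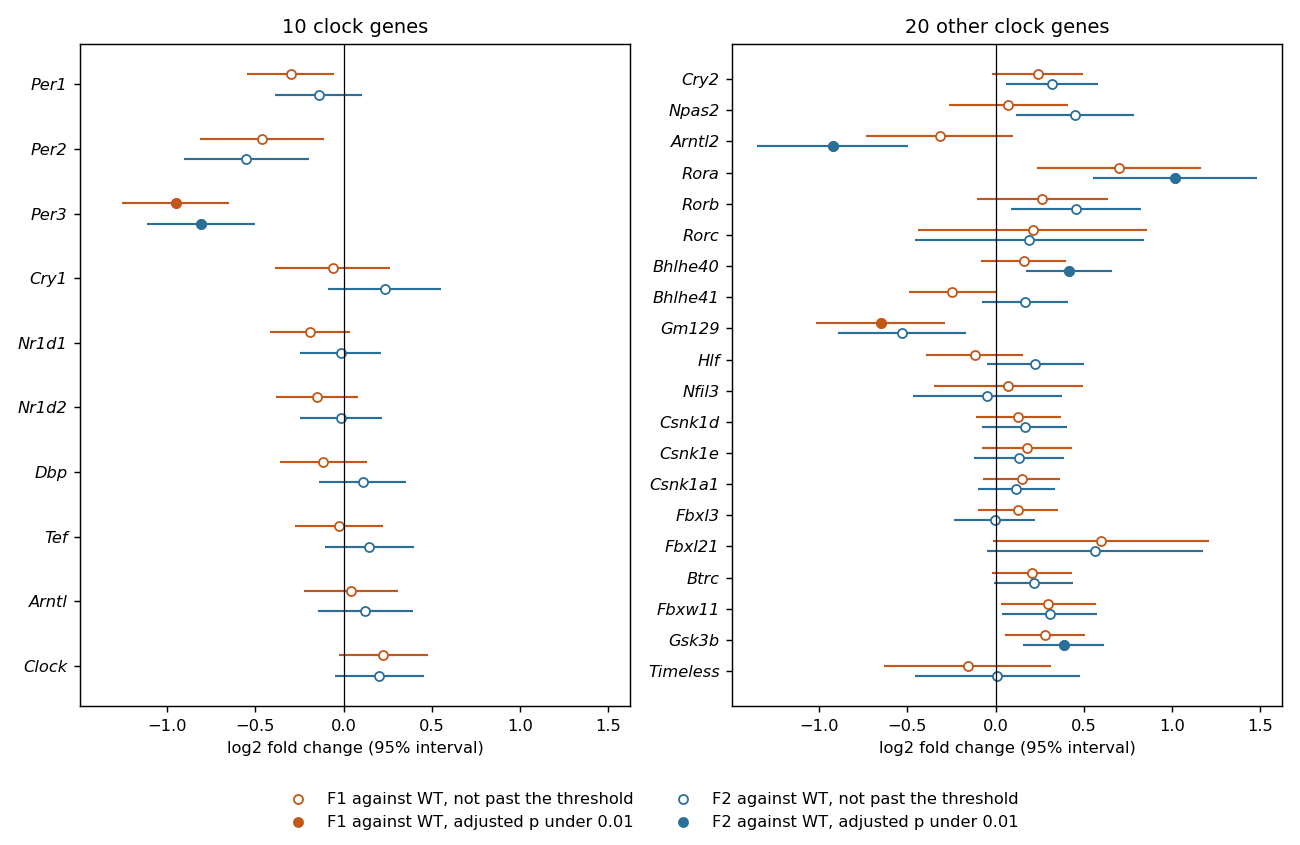
Log2 fold change with its 95% interval for the 10 clock genes (left) and 20 other clock genes (right) in F1 and F2 against WT; filled points passed an adjusted p under 0.01 in the edgeR exact test. Per3 is the only filled gene on the left, at -0.95 and -0.81.

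Per1 and Per2 also respond to inputs other than the clock, so lists of activity-induced and glucocorticoid-induced genes were read beside them. Of 10 activity-induced genes, 2 were called higher in F1 (Arc and Ier2) and none was called in F2. Of all 17421 genes, 657 were called higher in F1 and 673 in F2, and 12.3% and 12% were called in either direction. Neither passed the quasi-likelihood test in F1 (adjusted p = 0.0161 for Arc and 0.0282 for Ier2). The 10 summed to 404 CPM in F1 replicate 1 and to between 193 and 226 CPM in the other 5 libraries. Per1 was at 61.3 CPM in F1 replicate 1 and at 59.2 CPM in F1 replicate 2, and Per3 at 50.1 CPM was there at its lowest. Of 8 glucocorticoid-induced genes, the exact test called Klf9 and Sgk1 higher in F1, at log2 fold changes of 0.66 (adjusted p = 0.000723) and 0.49 (adjusted p = 0.00364). It called Klf9 higher in F2, at 0.84 (adjusted p = 7.27e-06). The counts and shares over all genes are those given for the activity-induced list. By the quasi-likelihood test Klf9 passed in F2 (adjusted p = 0.0046) and neither gene passed in F1 (adjusted p = 0.0145 for Klf9 and 0.0182 for Sgk1). Without F1 replicate 1, Arc was at 0.53 (adjusted p = 0.0423), Ier2 at 0.48 (adjusted p = 0.155) and Sgk1 at 0.41 (adjusted p = 0.0455) in F1, and without F1 replicate 2 Klf9 was at 0.37 (adjusted p = 0.0825). Leaving out WT replicate 2 also ended all 4 F1 calls, with adjusted p between 0.04 and 0.0856. Klf9 in F2 passed whichever library was left out. The part of either list in the Per values was not tested.

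Markers of other cells were read beside the members. By the exact test 657 of all 17421 genes were called higher in F1 and 673 in F2. In either direction the shares called are again 12.3% in F1 and 12% in F2. In a bulk sample, fewer cells of a type and less RNA per cell cannot be told apart. Of 6 oligodendrocyte markers, 2 were called higher in F1 and 1 in F2, and they summed to 1063 and 1939 CPM in WT, 2866 and 2160 CPM in F1, and 1475 and 2794 CPM in F2. Of 5 astrocyte markers, 1 and 2 were called higher (sums of 694 and 748 CPM in WT against 796 to 1193 CPM over the F1 and F2 libraries), and of 5 microglia markers 0 and 4 (sums of 104 and 105 CPM in WT against 123 to 161 CPM). None of these 16 markers was at 0 in any library. In F2, 1 of 4 endothelial markers (Pecam1, 0.97), 1 of 5 interneuron markers (Gad2, 0.56) and 1 of 5 markers of CA fields and mossy cells (Mpped1, 0.69) were also called higher. Of 6 granule cell markers none was called in F1 or F2, by the exact or the quasi-likelihood test. All 6 had a log2 fold change above 0 in F2 (median 0.41), against 8703 of 17421 genes tested. In F1 3 of the 6 did, against 8869 of all genes. The 6 markers summed to 816 and 834 CPM in WT, 722 and 903 CPM in F1, and 1035 and 983 CPM in F2. By the quasi-likelihood test no oligodendrocyte, microglia or CA field marker was called in F1 or F2, and in F2 1 astrocyte, 1 interneuron and 1 endothelial marker were. That test called 5.91% of all genes in F1 and 5.72% in F2 in either direction, with 206 and 214 genes higher. Uniquely placed reads assigned to no gene, which under intersection-strict counting include reads in introns or only partly on exons, made up 17.7% and 20.7% in WT, 13.8% and 12.2% in F1, and 13.9% and 17.4% in F2. The part of these shares and markers in the values of Per3 and the other members was not tested.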

How the data were processed

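RNA was measured by polyA RNA-Seq in 6 libraries (WT, F1 and F2, 2 each). Methylation samples of the same series were not used here. Per the study's methods the authors sequenced single-end reads of 50 bases, aligned them with TopHat (TopHat2 2.0.2 in the submitters' processing notes) to mm9 and counted reads per gene with HTSeq in intersection-strict mode. The deposited values are raw counts per gene. Lines naming no gene (35.3% to 46.6% of all reads listed) were left out of library sizes and tests. Genes were kept by filterByExpr (17421 of 34620), scaled by TMM, and tested with the edgeR 4.0.16 exact test on tagwise dispersions from all 3 groups (common dispersion 0.0113), as the study's methods name edgeR. P-values were adjusted by Benjamini-Hochberg over all genes tested and called under 0.01. CPM are counts per 1000000 reads of TMM-scaled library size, and SDs are over 2 libraries. Intervals (95%) use standard errors from the tagwise dispersion and cover these libraries only. Settings tried were the quasi-likelihood test, replicate blocks, DESeq2 1.42.0, other dispersion, scaling, filter and threshold, and each library left out. Scripts were tested on simulated data. Libraries of a group differed beyond counting noise (chi-square per degree of freedom 18.5 to 23.0). Groups came from the maternal and grandmaternal genotype labels. All 10 members, further genes of fixed lists that passed, and up to 4 of each list that did not, were eligible to be named. The members and lists were chosen with earlier results of these data known. Promoter sequences are from RefSeq (GRCm38.p6 table) and were matched exactly to NCBIM37, and gene positions are from GENCODE M1.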

Additional observations from a re-analysis of the deposited data

Results flagged for a closer look

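Arc, an activity-induced gene read beside Per1, differed between F2 and F1 by a log2 fold change of -1.10 (edgeR exact test, adjusted p = 0.00188), a test of the difference between the 2 generations themselves. It was at 115 and 59.9 CPM in F1 and at 40.5 and 41.0 CPM in F2. Without F1 replicate 1 the value was -0.56 (adjusted p = 0.229), the range over all alternatives was -1.49 to -0.56, and the quasi-likelihood test gave adjusted p = 0.139.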

How the results depend on the processing

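Per3 kept its direction and its side of the threshold against WT in every alternative run. Of 480 single-gene values of the members, 474 kept their side of the threshold and either kept their sign or changed it while moving by less than 1 standard error. Such small changes of sign numbered 23 over all genes named, and among the members they concerned Arntl, Cry1 and Tef in F1, Nr1d1 and Nr1d2 in F2, and Clock in F2 against F1. With a larger move 2 member values changed sign without passing, and the 4 that newly passed were Per2 without WT replicate 2 and at an adjusted p under 0.05, in F1 and F2. Counts of genes called in F1, F2 (both against WT) and F2 against F1 were 1029, 997 and 2 by the quasi-likelihood test (2144, 2084 and 129 by the exact test), 848, 758 and 9 with a replicate block, and 3623, 3606 and 230 at an adjusted p under 0.05, where members called were 2 in F1 and 2 in F2. With that block a likelihood-ratio test called 2097, 2099 and 163. Replicate numbers did not pair the libraries (correlations of replicate differences -0.03, -0.08 and -0.18). Crossing the F2 numbers in the block, chosen after seeing the data, called 1340, 1445 and 27. The other clock genes called were 1 in F1 and 4 in F2. In F1 they were 0 by the quasi-likelihood test, with its replicate block, with the crossed block and with no filter on low counts, and 2 at an adjusted p under 0.05. In F2 they were 1 by the quasi-likelihood test and with its block, and 2 by the likelihood-ratio block, the crossed block and library size alone. Causes were not tested. Leaving out each library in turn, the counts ranged from 988 to 2043 in F1, 703 to 2585 in F2 and 52 to 223 in F2 against F1, members called from 1 to 2 in F1 and in F2, and other clock genes from 0 to 1 in F1, 0 to 4 in F2 and 0 to 1 in F2 against F1.

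Some values that were not called with all libraries changed sign when 1 library was left out. The log2 fold changes of F2 against WT then ranged for Per1 from -0.26 to 0.012, for Nfil3 from -0.28 to 0.22, for Arc from -0.29 to 0.29. The log2 fold changes of F2 against F1 then ranged for Clock from -0.16 to 0.12, for Rora from -0.11 to 0.93, for Wee1 from -0.38 to 0.38, for Fos from -1.65 to 0.27, for Egr1 from -0.88 to 0.23, for Klf9 from -0.067 to 0.48. The log2 fold changes of F1 against WT then ranged for Hlf from -0.28 to 0.082, for Fos from -0.49 to 1.42, for Egr1 from -0.058 to 1.05. Each member had at least 429 reads in every library. The limits are 2 libraries a group, an unknown hour of dissection, and WT replicates that, among the members, differ most in Per2 and Per3.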

Other observations

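The genes whose log2 CPM followed Dbp most closely over the 6 libraries were Igf1 (Pearson r 0.983), mmu-mir-689-2 (0.943), Gm15564 (0.938), Ntf3 (0.938) and Mir5102 (0.938). Those closest to Arntl were Atxn1 (0.996), Zfp687 (0.995), Nes (0.986), A930001N09Rik (0.986) and Lcor (0.983). These are descriptions over 4219 genes, each with an average of 5 CPM or more and an SD of at least 0.2 (log2), with n = 6 libraries that share their groups and scaling. Dbp and Arntl themselves varied by an SD of only 0.12 and 0.07 on that scale. The genes were picked for the highest r, so high values follow from that choice. Without F2 replicate 2, r with Dbp was 0.860 for mmu-mir-689-2, 0.857 for Gm15564 and 0.847 for Mir5102. Igf1 stayed at 0.98 or more and Ntf3 at 0.927 or more, whichever library was left out.

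Among the members, Per3 went with Per2 (r = 0.88), Per1 (0.86), Nr1d1 (0.71) and Nr1d2 (0.65) over the same 6 libraries. Its r was -0.02 with Dbp, 0.06 with Cry1, 0.11 with Tef, -0.46 with Arntl and -0.51 with Clock. Per1 went most closely with Nr1d1 (r = 0.90). These are descriptions without a test.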
